A study of Caenorhabditis elegans with 4 samples.

Results

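Narrow, high-scored binding sites of T26A5.5 in C. elegans early embryos are described here. They were defined as peaks of the series-wide list that were 700 bp wide or less, had a series-wide score of 40 or more, and overlapped by at least 1 bp a peak of the replicate 1 list and a peak of the replicate 2 list. The rule selected 611 of the 12350 series-wide peaks (4.95%), which is 10.0% of the 6097 peaks supported by both replicates. They are set beside the 1152 supported peaks with the same minimum score that were wider than 700 bp, called wide peaks below. The members were chosen by width, series-wide score and support, so those values are given as a description.

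The WBcel235 gene table gives T26A5.5 the symbol jhdm-1, and the protein belongs with the KDM2 family of JmjC-domain proteins. In mammals, KDM2 proteins remove methyl groups from lysines of histone H3 through the JmjC domain and bind DNA rich in unmethylated CpG through a CXXC zinc finger, mostly at gene promoters. In chromatin immunoprecipitation followed by sequencing (ChIP-seq), a factor held at a short stretch of DNA gives a narrow peak about as wide as the sonicated fragments allow, and a factor spread along chromatin gives a broad one.

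The series holds 4 samples, 2 from ChIP and 2 of input DNA. All came from early embryos of the wild-type laboratory strain N2, in which males and hermaphrodites were mixed, at 20 °C and with no treatment named. The embryos were frozen and ground, then crosslinked in 1% formaldehyde for 10 min. Each ChIP replicate has its own peak list, and a further list belongs to the whole series. The labels do not say whether the replicates came from separate cultures, and the lists give no counts of reads, so the depth of each peak is not known.

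The lists held 4200 peaks in replicate 1 and 6563 in replicate 2, with median scores of 420.59 and 409.20. Many peaks carried a score of exactly 3100, namely 378 in replicate 1 and 959 (14.6%) in replicate 2, although scores up to 3217.62 and 3233.06 occurred. The scores are the authors' own, their unit is not given in the sources used here, and they are compared only within a list. With both ChIP libraries in 1 group, no test compares conditions. Peaks of 1 library are not replicates, so shares carry 95% Wilson intervals and medians 95% order-statistic intervals, both of which cover counting error only, and no difference below carries a p-value. Coordinates are WormBase WS220. They were not assigned to genes and no sequence is shown, because a genome and annotation of that build were not used here.

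The members ranged from 267 to 700 bp in width, with a median of 548 bp (interquartile range 466 to 625 bp). Their series-wide scores ran from 40.02 to 120.44, with a median of 52.65, against a median of 62.53 in the wide peaks. The Spearman rho of width with score was -0.01 across the 611 members and 0.27 across the 1152 wide peaks. All of these peaks come from the same libraries.

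The width limit cut through a continuous distribution. There were 116 members from 650 to 700 bp wide and 84 wide peaks from 701 to 750 bp. The widest members, at 700 bp, had scores of 81.88, 74.07 and 74.92, and the narrowest wide peaks, IV 14307421 to 14308121 at 701 bp and a pair at 702 bp, had scores of 88.27, 51.42 and 48.95. The score minimum cut through one as well. There were 72 members scored under 42, the lowest being V 9983443 to 9984068 at 40.02, and 52 narrow supported peaks scored from 38 to just under 40, the highest of them at 39.95.

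At the top of the score range the members were not spread over the allowed widths. The 27 members scored 100 or more were all between 366 and 551 bp wide, with a median of 444 bp and an interquartile range of 427.5 to 475.5 bp. The narrowest wide peak in that score range was 712 bp, so no supported peak scored 100 or more lay between 551 and 712 bp. This gap depends on the cut at 100. At scores of 80 to 100 the members reached 700 bp and the wide peaks started at 701 bp. One of those members, I 13953055 to 13953736, was 682 bp wide with a score of 98.42. In the score range from 40 to 60 the members filled the range from 267 to 699 bp with a median of 549 bp, and the medians at scores of 60 to 80 and 80 to 100 were 591 and 514 bp, so member width did not fall steadily with score. In wide peaks the median width was 1020 bp at scores of 40 to 60 and 2019 bp at 100 or more.

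**Figure D1:**
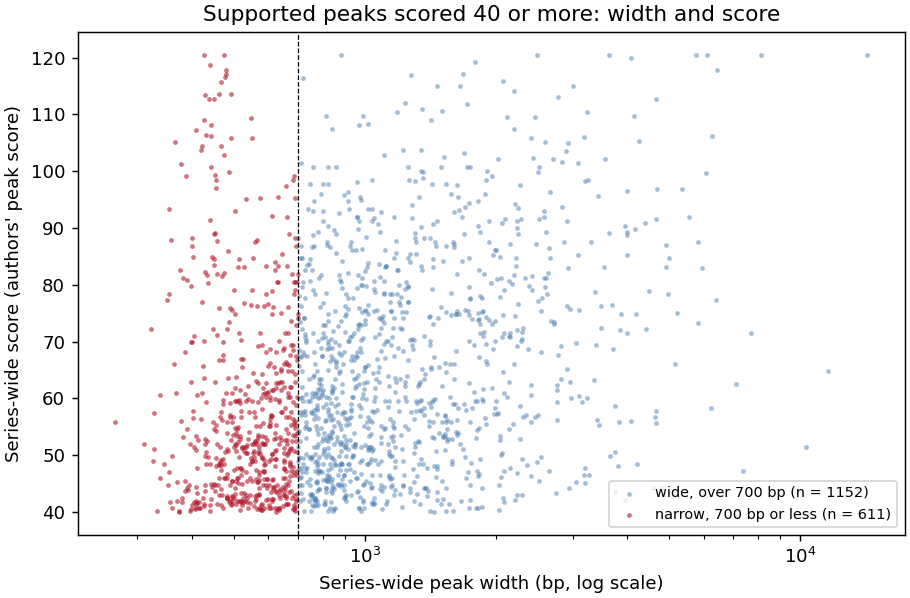
Series-wide width (horizontal, bp, log scale) against series-wide score (vertical) for the 611 narrow (red) and 1152 wide (blue) supported peaks scored 40 or more, 1 point per peak, with the 700 bp limit dashed. At a score of 100 or more the narrow peaks lie between 366 and 551 bp and the wide peaks start at 712 bp. That gap depends on the cut at 100, since at scores of 80 to 100 the narrow peaks reach 700 bp.

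These 27 peaks lay on every chromosome, with 9 on IV, 5 on X, 4 each on II and III, 3 on V and 2 on I. In replicate 2, all 27 lay under a peak scored 3100. In replicate 1, 4 of the 27 did. Their replicate 1 scores ran from 213.59 to 3100 with a median of 1333.81, and 3 lay under the median of the replicate 1 list. The replicate 1 and replicate 2 peaks were centred on nearly the same position, with midpoints within 50 bp of each other for 23 of the 27. For 18 of the 27, neither replicate peak held another series-wide peak. For the others the distance is that of a joint region and not of the member.

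The highest-scored members of each chromosome show the range of settings in which such peaks were found. On IV, the peak at 9140234 to 9140673 was 440 bp wide and had a series-wide score of 118.64, a replicate 1 score of 1265.78 and a replicate 2 score of 3100. Its midpoint was 8 bp from the midpoint of its replicate 1 peak and 36 bp from that of its replicate 2 peak, and the nearest other series-wide peak was 7915 bp away. The peak at IV 9001089 to 9001516 (score 113.42, replicate scores 1901.23 and 3100) had a neighbour at 1082 bp. Both stood alone in their replicate peaks, meaning that those held no other series-wide peak. So did IV 12781902 to 12782310, the narrowest of the 24 highest-scored members (4 per chromosome) at 409 bp, and IV 866841 to 867272. Their scores were 107.30 and 106.40, with replicate 1 scores of 1379.57 and 867.89.

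On X, the peak at 2328802 to 2329294 had a score of 113.66 and replicate scores of 3100 in both lists, and its nearest neighbour lay 23780 bp away. A similar distance was measured at X 16721729 to 16722155 (score 108.96, neighbour at 22234 bp), but there the replicate 1 score was 366.33 beside 3100 in replicate 2. X 14324131 to 14324568 had the same imbalance, with a score of 112.69 and replicate scores of 395.50 and 3100. Both replicate 1 values are below that list's median of 420.59. The fourth, X 16564498 to 16564976 (score 117.14, replicate scores 1233.85 and 3100), belonged to a run of 3 members within 2293 bp.

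On V, the peak at 14092371 to 14092796 shared the highest score of the list, 120.44, and had replicate scores of 2940.27 and 3100. A neighbour with a score of 67.45 that was not supported by both replicates lay 1649 bp away. V 8228618 to 8229078 (113.54) and V 8247606 to 8248091 (99.81) were each other's neighbours at 18527 bp on one side, and both stood alone in their replicate peaks. V 20698653 to 20699131 (117.87) lay at 99.2% of the length of V and shared its replicate peaks with 1 other series-wide peak 234 bp away.

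On III, the members with the highest scores were embedded in groups. III 7142040 to 7142514 (120.44) and III 11090723 to 11091190 (115.69) had replicate scores of 3100 in both lists, and each shared its replicate peaks with 2 other series-wide peaks, the nearest at 421 and 168 bp. III 5653596 to 5654046 (112.69) had replicate scores of 531.79 and 3100 and a neighbour at 407 bp. The exception was III 9717122 to 9717565 (108.14, replicate scores 1653.77 and 3100), which stood alone with its neighbour at 6600 bp.

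On II, the peaks at 14018031 to 14018506 (116.50) and 11223948 to 11224389 (106.11) stood alone, with neighbours at 14072 and 7993 bp and replicate 1 scores of 1688.18 and 1736.87. II 13521077 to 13521542 (104.44) lay 285 bp from a wide peak, and II 216503 to 216976 (102.93) shared its replicate peaks with 6 other series-wide peaks. On I, the highest scores were lower, at 109.42 for 8245240 to 8245785 and 105.89 for 12173515 to 12174007, and both were isolated by more than 10 kb. I 13953055 to 13953736 (98.42) and I 11627962 to 11628416 (96.96) had neighbours at 51 and 119 bp.

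Over these 24 peaks the score was 3100 in all 24 replicate 2 peaks and in 3 replicate 1 peaks. Of the 24, 16 stood alone in both replicate peaks and 11 had no other series-wide peak within 5 kb. The 3 highest-scored wide peaks, II 12787594 to 12791225, III 341672 to 349799 and III 12596469 to 12602241, each had a score of 120.44, and their neighbours lay 51, 281 and 118 bp away. Each of those wide peaks shared its replicate peaks with at least 1 other series-wide peak.

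Members were found on all 6 chromosomes in proportions close to those of the wide peaks. Chromosome I held 126, III 116, II 114, IV 112, V 94 and X 49. Per Mb the density was highest on III (8.42) and I (8.37), followed by II (7.46), IV (6.41) and V (4.50), and lowest on X (2.77). Among supported peaks scored 40 or more, the narrow share was between 31.0% on X (Wilson interval 24.3 to 38.6) and 36.7% on V (31.1 to 42.8), with overlapping intervals on every chromosome. X held 8.02% of the members (6.12 to 10.4), 9.46% of the wide peaks (7.90 to 11.3) and 9.38% of all supported peaks. With a width limit of 1000 bp in place of 700 bp, the X share of the narrower peaks was 0.613 percentage points above that of the wider ones, the opposite direction.

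Along the chromosomes, 250 members (40.9%, Wilson interval 37.1 to 44.9) had their midpoint in an arm, taken as the outer 25% at either end, against 526 wide peaks (45.7%, 42.8 to 48.5). V and X departed from this in opposite directions. On V, 22 of 94 members lay in the arms (23.4%, 16.0 to 32.9), against 40.1% of wide peaks (32.9 to 47.8). On X, 32 of 49 did (65.3%, 51.3 to 77.1), against 47.7% of wide peaks (38.6 to 57.0). On I, II, III and IV the arm share of members ranged from 40.2% to 43.1%. These shares were picked out after their values were seen. With a width limit of 500 bp the pooled arm share of the narrower peaks was 2.12 percentage points above that of the wider ones.

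Counted in 1 Mb bins, members were spread thinly, with a median of 6 and a mean of 6.06 (SD 3.72) over 100 bins of at least 0.5 Mb. The most, 15, fell in II 11000001 to 12000000, which held 23 wide peaks, and in II 13000001 to 14000000, which held 9. There were 5 bins with no member, and 3 of them were on X, at 5000001 to 6000000, 10000001 to 11000000 and 13000001 to 14000000. Those bins were not empty of T26A5.5 peaks, since they held 8, 10 and 7 wide peaks.

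**Figure D2:**
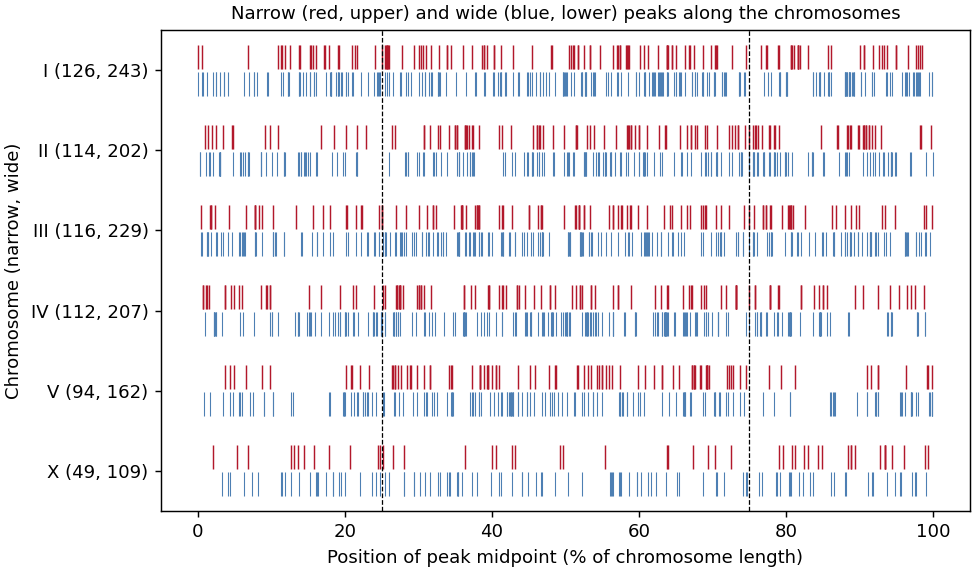
Midpoints of narrow (red, upper row) and wide (blue, lower row) peaks as a percentage of chromosome length, 1 line per peak, with the number of narrow and wide peaks beside each chromosome name and the limits of the arms dashed at 25% and 75%. On V, 72 of 94 narrow peaks lie in the centre, and on X 17 of 49 do.

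Members lay farther from the next series-wide peak than wide peaks did when the distance was taken between edges. The median was 1080 bp for members (order-statistic interval 940 to 1255 bp) and 502 bp for wide peaks (432 to 572 bp), and 385 bp for all supported peaks. Between midpoints the medians were 1657.5 bp for members and 1664 bp for wide peaks. The difference in the median was therefore not seen with this measure, which takes in part of the width of both peaks. At longer distances the pooled sets differed under both measures. No other peak lay within 5 kb of 94 members (15.4%, Wilson interval 12.7 to 18.5) and of 84 wide peaks (7.29%, 5.93 to 8.94), and of 7.36% of all supported peaks. With midpoints the shares were 17.7% (14.9 to 20.9) and 10.2% (8.62 to 12.1).

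The excess of isolated peaks was mostly at higher scores. Among peaks scored 40 to 60, 12.7% of 403 members and 9.98% of 521 wide peaks had no other peak within 5 kb. At scores of 60 to 80 they were 12.3% of 122 and 4.95% of 364. Among those scored 80 to 100 the shares were 27.1% of 59 members and 4.41% of 204 wide peaks. At 100 or more they were 44.4% of 27 members and 7.94% of 63 wide peaks. The median distance between edges in that last class was 4681 bp for members and 233 bp for wide peaks, and between midpoints 5229 bp and 2094.5 bp. With distances between midpoints the shares beyond 5 kb were 14.1% and 13.2% at scores of 40 to 60, the class of most members, so the sets were nearly alike there. They were 16.4% and 6.59% at 60 to 80, 28.8% and 7.84% at 80 to 100, and 51.9% and 14.3% at 100 or more.

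Isolation also differed with chromosome. The share of members with no other peak within 5 kb was 30.6% on X (15 of 49) and 21.3% on V (20 of 94), the chromosomes with the fewest members per Mb. It was 16.7% on II, 15.2% on IV, 10.3% on I and 8.62% on III. On every chromosome it was above the share in wide peaks, although on III the shares were 8.62% and 8.30%.

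**Figure D3:**
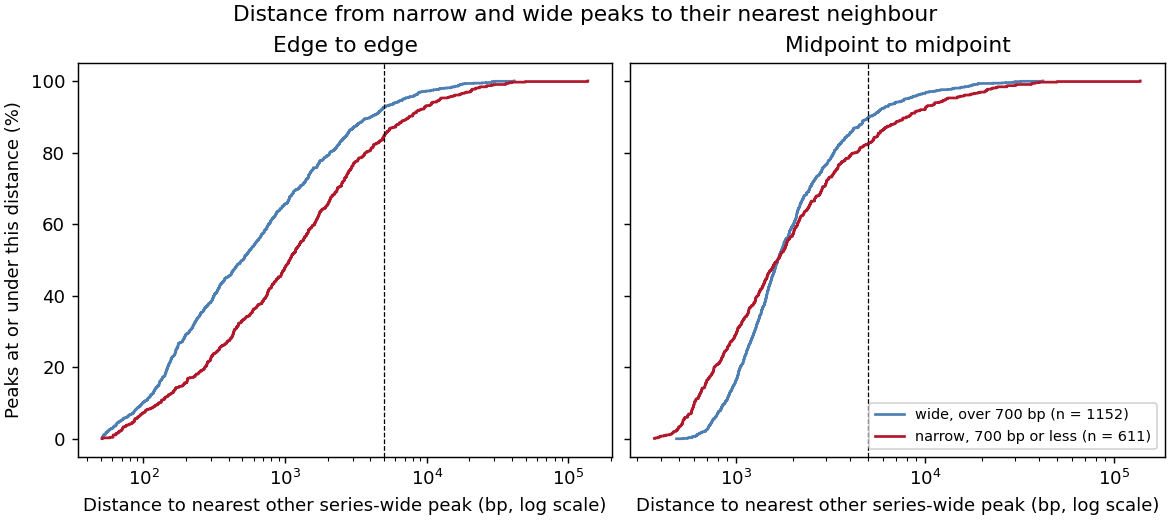
Cumulative share of narrow (red) and wide (blue) peaks by distance to the nearest other series-wide peak (bp, log scale), between edges (left) and midpoints (right), with 5 kb dashed. The medians are 1080 and 502 bp on the left and nearly meet, at 1657.5 and 1664 bp, on the right, while beyond 5 kb the narrow peaks stay farther from their neighbours in both panels.

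The 8 most isolated members were not those with the highest scores. V 16958221 to 16958703, with a score of 42.37 and replicate scores of 189.58 and 936.38, had its nearest neighbours 137328 bp to the left and 356591 bp to the right. X 6446359 to 6446808 (score 44.93, replicate scores 373.10 and 2622.52) was the next, at 49686 bp. V 7142524 to 7142921 (69.93) and V 16225504 to 16225958 (98.40) followed at 39875 and 37908 bp, both with 3100 in replicate 2 and under 900 in replicate 1. By their choice, no other series-wide peak lay within 10 kb of any of the 8. All 8 stood alone in both replicate peaks, as did 93 of the 94 members with no other peak within 5 kb. The remaining ones were IV 15609744 to 15610318 (55.14), I 12324592 to 12325022 (59.42), X 14938067 to 14938749 (40.46) and X 7097025 to 7097589 (40.49), at 36325, 36090, 29771 and 28568 bp.

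The nearest series-wide peak of a member had a median score of 11.16, near the medians of 8.81 for the neighbours of wide peaks and 10.16 for those of all supported peaks. It scored lower than the member in 548 of 611 cases (89.7%), and lower than the wide peak in 93.8%, as the score minimum of 40 nearly sets. For 211 members (34.5%) that neighbour was not supported by both replicates, for 275 (45.0%) it was a supported peak outside both sets, for 68 (11.1%) another member and for 57 (9.33%) a wide peak. The neighbour was not supported for 25.6% of wide peaks and 22.2% of all supported peaks. Another member lay within 5 kb of 18.8% of members, and another wide peak within 5 kb of 23.0% of wide peaks, which are denser (11.5 per Mb against 6.10). Within 1000 bp these shares were 7.69% and 7.64%. With members linked at 5 kb or less, 496 of the 611 formed no group, 44 pairs were formed and 9 runs of 3, the largest size seen. The tightest run of 3 was IV 13600720 to 13602368, and the one with the highest single score was III 7140183 to 7142514, with scores from 73.45 to 120.44 inside a single replicate peak in each list.

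Each member overlapped a single peak in each replicate list, and every member lay inside its replicate 1 peak from end to end. In replicate 2, 605 of 611 did. Since replicate peaks are wider than series-wide peaks, a member took up a median of 32.4% of its replicate 1 peak and 34.6% of its replicate 2 peak. Of the members, 293 (48.0%, Wilson interval 44.0 to 51.9) were the only series-wide peak in both of their replicate peaks, against 360 wide peaks (31.2%, 28.6 to 34.0). Another 238 members (39.0%) shared the replicate peak with other series-wide peaks in both lists. For those the replicate score belongs to the joint region and not to the member.

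Members that stood alone were centred in replicate peaks that were more compact than those of wide peaks. The median width of the replicate peak was 1271 bp in replicate 1 and 1063 bp in replicate 2 for the 293 members, and 1856 and 1624 bp for the 360 wide peaks that stood alone. For the 1029 supported peaks outside both sets that stood alone, the widths were much like those of members, at 1320 and 1063 bp. The midpoint of the member was a median of 37.5 bp (order-statistic interval 32.5 to 42 bp) from that of its replicate 1 peak and 46.5 bp (37 to 56.5 bp) from that of its replicate 2 peak. In the supported peaks outside both sets that stood alone, these medians were 42 and 78.5 bp. These positions are related by origin, because all 3 lists come from the same series.

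The distance between the replicate 1 and replicate 2 peaks of a site was measured on the replicate lists, but for peaks selected through the series-wide list, so it is not independent of that list. For the 293 members that stood alone, the midpoints of the replicate peaks were a median of 48.5 bp apart (40 to 60.5 bp), and 200 of them (68.3%, Wilson interval 62.7 to 73.3) were within 100 bp. For the 360 wide peaks that stood alone the median was 114.75 bp (102 to 133.5 bp), and 43.9% (38.9 to 49.1) were within 100 bp. The replicate peaks of the members were also the narrower ones, as given above, and the part of that width in the distance was not tested.

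**Figure D4:**
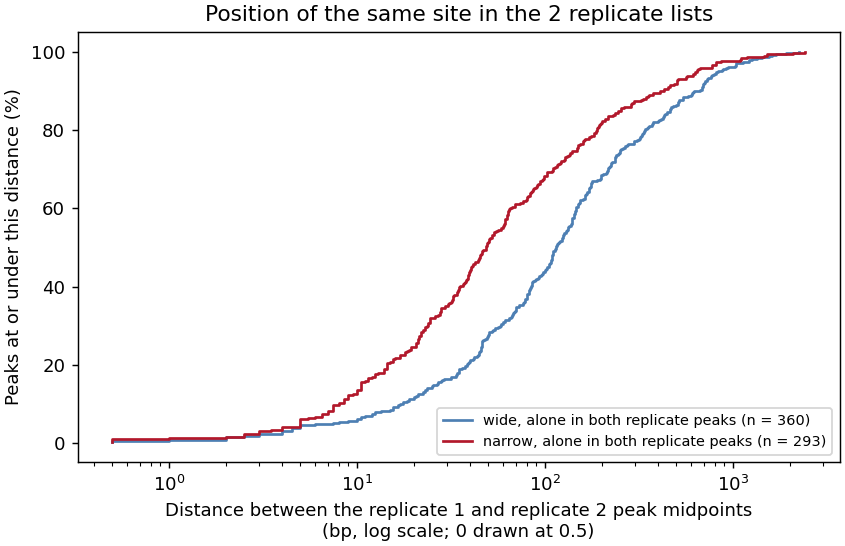
Cumulative share of peaks that were the only series-wide peak in both of their replicate peaks, narrow (red, 293) and wide (blue, 360), by the distance between the midpoints of the replicate 1 and replicate 2 peaks (bp, log scale, 0 drawn at 0.5). The median distance is 48.5 bp for narrow and 114.75 bp for wide peaks.

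Members met replicate peaks with lower scores than wide peaks did. In replicate 1 the median was 740.93 for members (order-statistic interval 691.87 to 776.09) and 2201.14 for wide peaks (2071.01 to 2358.70). In replicate 2 it was 1593.38 (1394.28 to 1898.77) and 3100. Over all supported peaks the medians were 848.75 and 1728.08, closer to those of the members. With the wide peaks weighted to the members' score classes, the replicate 1 median of the wide peaks was 1891.14 and the replicate 2 median stayed at 3100. Among peaks that stood alone, the medians were 581.75 for members and 1527.12 for wide peaks in replicate 1, and 979.22 and 1915.36 in replicate 2. Against wide peaks the direction was therefore the same where no joint region entered the replicate score. Over all supported peaks that stood alone, which were not selected on the series-wide score, the medians were 350.125 and 534.41. Both are below those of the members that stood alone.

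Over all members and all wide peaks, the share at 3100 was also lower in members, in both lists. In replicate 1, 48 members (7.86%, Wilson interval 5.98 to 10.3) and 391 wide peaks (33.9%, 31.3 to 36.7) had that score. In replicate 2, 214 members (35.0%, 31.3 to 38.9) and 662 wide peaks (57.5%, 54.6 to 60.3) did. Over all supported peaks the shares were 16.9% and 37.1%, and over those that stood alone 4.93% and 13.6%. Among peaks that stood alone, the replicate 1 shares were 3.07% of members and 19.7% of wide peaks. Their replicate 2 shares were 28.7% (23.8 to 34.1) and 35.0% (30.3 to 40.1), with overlapping intervals. Members and wide peaks with no other peak within 5 kb had 4.26% and 20.2% in replicate 1, and 44.7% and 44.0% in replicate 2. In the upper score classes the sets were apart in replicate 1 and close in replicate 2. At series-wide scores of 80 to 100, 15.3% of members and 62.3% of wide peaks were at 3100 in replicate 1, while in replicate 2 the shares were 76.3% and 76.5%. At 100 or more, 4 of 27 members and 53 of 63 wide peaks had 3100 in replicate 1, and 27 of 27 and 57 of 63 had it in replicate 2. With a score minimum of 60 the replicate 2 medians of narrow and wide peaks were both 3100, and their difference was 0.

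Within the members, replicate 1 scores were higher in the wider classes. They had a median of 271.51 in the 50 members of 400 bp or less, 654.41 from 401 to 500 bp, 758.19 from 501 to 600 bp and 932.30 from 601 to 700 bp. Replicate 2 scores showed no such order, with medians of 2631.36, 2274.16, 1160.24 and 1783.09 in the same classes. Across the 611 members, the Spearman rho of width with the replicate 1 score was 0.25, and with the replicate 2 score it was 9.72e-05. The series-wide score ranked the members more like replicate 2 (rho 0.48) than like replicate 1 (rho 0.36). That order was seen in the 293 members that stood alone (0.65 and 0.50). In the 318 sharing a replicate peak the values were nearly equal (0.26 and 0.25). Across wide peaks the order was the reverse, with 0.32 for replicate 2 and 0.48 for replicate 1. These correlations are across peaks of the same libraries, and many peaks are tied at 3100.

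Among the 5 narrowest members, a score of 3100 in replicate 2 was seen only in shared replicate peaks. Those scores belong to the joint region and not to the member. IV 14864620 to 14864886, 267 bp wide, had a replicate 1 score of 213.59 and a replicate 2 score of 3100. IV 13602058 to 13602368 and IV 13600720 to 13601041, 311 and 322 bp wide, lay in the same replicate 1 peak, scored 99.61, and the same replicate 2 peak, scored 3100. III 11117749 to 11118076, at 328 bp, had scores of 295.56 and 3100. Only I 14118611 to 14118935, at 325 bp, had a replicate 2 score below 3100, with 249.53 in replicate 1 and 430.80 in replicate 2. That peak was also the only one of the 5 to stand alone in both replicate peaks. All 5 replicate 1 scores are below the median of that list.

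The Spearman rho of replicate 1 with replicate 2 score was 0.21 across the 611 members, 0.27 across the 293 that stood alone and 0.33 across the 1152 wide peaks. Over all 6097 supported peaks, which were not selected on the series-wide score, it was 0.51, and over the 1682 of them that stood alone 0.54. With a score minimum of 60 the rho of the narrow peaks was -0.064 across 208 peaks, most of them tied at 3100 in replicate 2. Of the members, 168 (27.5%) met a replicate 1 peak below that list's median score and 95 (15.5%) a replicate 2 peak below its median, and 30 (4.91%) were below in both lists. In wide peaks these shares were 5.73%, 3.65% and 1 peak of 1152. Over all supported peaks they were 32.9%, 21.6% and 13.4%, each above the share in members. A replicate 2 score of 3100 together with a replicate 1 score below the median was found for 56 members (9.17%, Wilson interval 7.13 to 11.7) and 44 wide peaks (3.82%, 2.86 to 5.09), and for 5.67% of all supported peaks (5.12 to 6.28). Of those 56, 16 were on IV, 12 on V, 9 on II, 8 on X, 6 on III and 5 on I. Of the 611 members, IV held 112, V 94, II 114, X 49, III 116 and I 126. Only 21 of the 56 stood alone in both replicate peaks, and the scores of the others belong to joint regions. Among peaks that stood alone, the shares were 7.17% of members (4.74 to 10.7) and 3.33% of wide peaks (1.92 to 5.74). Over all supported peaks that stood alone the share was 2.32%. The opposite, 3100 in replicate 1 and below the median in replicate 2, was found for 0 of 611 members, with a Wilson upper limit of 0.625% (3 counts of the total are 0.491%), for 2 wide peaks and for 0.640% of all supported peaks.

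**Figure D5:**
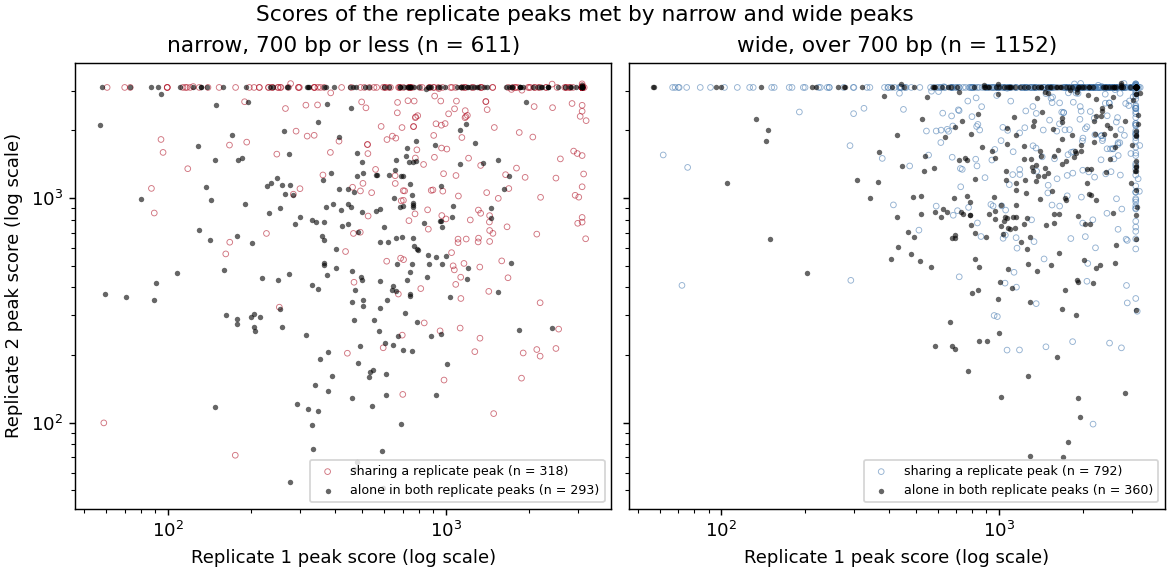
Replicate 1 score (horizontal) against replicate 2 score (vertical), both on log scales, for the replicate peaks met by narrow (left) and wide (right) peaks, with black points for peaks that were alone in both replicate peaks and open circles for the others. In the left panel 214 narrow peaks lie on the line at 3100 in replicate 2, across the whole range of replicate 1 scores, and 48 on the line at 3100 in replicate 1.

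The weakest members in each replicate were strong in the other list in some cases only. The lowest replicate 1 scores were 56.93 at II 12001080 to 12001521, 58.15 at I 2411684 to 2412022 and 58.88 at II 10157136 to 10157784. Their replicate 2 scores were 2109.38, 3100 and 99.78. The lowest replicate 2 scores were 51.02 at IV 208100 to 208778, 54.23 at I 2580668 to 2581057 and 62.26 at IV 224921 to 225425, and their replicate 1 scores were 597.54, 274.81 and 469.93. IV 208100 to 208778 and IV 224921 to 225425 lie in the first 2% of the chromosome. All 3 of these peaks with low replicate 2 scores stood alone in both replicate peaks and had series-wide scores of 42.48, 44.23 and 45.41.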

How the data were processed

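The analysis used 3 peak lists from 2 ChIP samples, and the input samples have no list of their own here. The submitters' processing notes name BWA and ce10 without a role. Per the file headers, coordinates are in WormBase WS220, and per the source column the replicate lists came from MACS and the series-wide list from MACS v2. Each deposited list gives a score per peak whose unit is not stated. Sources used here do not give the cut-offs, the control or any pooling of reads. Depth is unknown.

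Coordinates were 1-based, and an overlap of 1 bp or more counted. Where a peak met several replicate peaks, the highest score was taken. Distances were measured to the nearest series-wide peak of any score. Chromosome length was the highest peak end in any list. No significance test was run. Membership, gaps to the left and replicate 1 scores were tested on simulated data. The simulated sites lay far apart and shared no replicate peaks, so close neighbours and joint regions were not covered. The named peaks are the 4 highest-scored members per chromosome, the 8 most isolated, the 5 narrowest, the 3 lowest in each replicate, and the 3 highest-scored wide peaks. Peaks at a threshold, runs and bins were chosen after their values were seen. Members and comparisons were chosen with earlier results of these data known. Alternatives changed the width limit, score minimum, required overlap, supporting replicate, distance measure, chromosomes and comparison weights. Scripts ran in Python 3.11.15 with pandas 2.3.3, scipy 1.17.1, numpy 2.4.6 and matplotlib 3.10.9.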

Additional observations from a re-analysis of the deposited data

How the results depend on the processing

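The higher isolated share of narrow peaks, their lower replicate 1 scores and their more frequent lone position in replicate peaks kept their direction in all alternatives run for them. Every alternative still split the peaks by width, which is in the rule, so these directions are not independent of it. The Spearman rho of width with replicate 1 score was 0.25 across members and 0.54 across wide peaks. With the distance between edges it was -0.14 and -0.23. Differences below are narrow minus wide. A width limit of 500 bp gave 218 members and differences of 2.12 points in arm share (reversed), 15.2 points in isolated share, 880.5 bp in median distance, -1225 in replicate 1 score, -780 in replicate 2 score and 25.3 points in lone position, with a replicate rho of 0.375. A limit of 1000 bp gave 1076 members, 0.613 points in X share (reversed), -2147 in replicate 1 score and 21.6 points in lone position. A score minimum of 30 gave 997 members, -9.56 points in arm share, -1315 and -1999.5 in replicate 1 and 2 scores and a rho of 0.289. A minimum of 60 gave 208 members, 15.6 points in isolated share, -1972 and 0 in replicate scores and a rho of -0.0640. Midpoint distances reversed the median difference to -6.5 bp, and distances to supported peaks gave 925.5 bp. Score weighting gave -1150 in replicate 1. Peaks alone in their replicate peaks, an alternative chosen after seeing the data, gave -945 and -936. Support without replicate 1 or without replicate 2 gave 676 and 626 members. The cause was not tested for any of these. No paired analysis was possible because the shared replicate numbers join ChIP to input samples, and inputs have no list here. Depth is unknown, so a missing peak cannot be told from absent binding.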

Other observations

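Narrow peaks scored 40 or more that lacked support from both replicates numbered 82, so 88.2% of the 693 narrow peaks with that score were supported (Wilson interval 85.5 to 90.4), against 96.3% of the 1196 wide ones (95.1 to 97.2). Of the 82, 65 were found in replicate 2 alone, 15 in replicate 1 alone and 2 in no replicate list. The replicate 2 list is the longer one, with 6563 peaks against 4200. More peaks were met by it alone than by replicate 1 alone among wide peaks scored 40 or more (30 and 11) as well. Narrow peaks scored under 40 had the same order (2634 and 1313). The 65 peaks met by replicate 2 only had a median width of 504 bp, a median score of 53.26 and a highest score of 89.71. Of these, 47 (72.3%) lay in chromosome arms and 12 (18.5%) on X. In members the shares were 40.9% and 8.02%, and in all supported peaks 44.0% and 9.38%. The shares in lower-scored or wide peaks met by replicate 2 only are not given here. Of the 15 met by replicate 1 only, 5 lay in arms and none on X, and their highest score was 49.59. These peaks were examined after the members had been described, and the number met by replicate 1 only is small.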
